A study of Arabidopsis thaliana with 4 samples.

Results

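Nuclear Arabidopsis thaliana genes measured on 4 Affymetrix arrays of rosette leaf RNA numbered 13217, of which 12734 could be chosen by the rule below. Of the 12734, 40 were much dimmer on both arrays of the second replicate set than on both arrays of the first. The 40 genes were chosen by these very values. On a scale of log2(signal + 50), the lower of the 2 set 1 arrays had to exceed the higher of the 2 set 2 arrays by at least 1.5, which is called the gap here. Left out by the same rule were 477 genes from AT1G01080 to AT1G11280 on chromosome 1 and 6 named genes (PDF1.2, PDF1.2b, CHI, OSM34, AT4G16260 and COR27), which left 12734 genes that could be chosen. Of these, 0.314% passed, and 69 genes (0.542%) passed the mirrored rule, higher in set 2. The difference between sets is therefore a description throughout, and no test of it is given.

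The study compared AAF-OX plants, which overexpress AAF in the Col-0 background, with Col-0 wild type. All plants were 3 weeks old and grown in 16 h light and 8 h dark, and the RNA came from rosette leaves. The promoter that drives AAF, the number of transgenic lines and the number of plants behind each array are not given in the sources used here. Each genotype had 2 arrays (n = 2), 1 in each of 2 independently run sets, so each set holds 1 AAF-OX and 1 Col-0 array. The labels do not say what else differed between the sets, and growth, harvest, labelling and hybridisation cannot be told apart in the difference between them. In whole leaves, fewer cells of a type and less RNA per cell cannot be told apart either.

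The arrays went with their genotype labels. AAF, taken here as locus AT1G66330 from knowledge of the study, had signals of 7706 in AAF-OX and 1337 in Col-0 in set 2, and of 7442 in AAF-OX and 759.9 in Col-0 in set 1. Array medians were 169.0 and 169.9 in set 2 and 176.6 and 180.2 in set 1 (AAF-OX and Col-0 in each set). Over all 13592 probe sets tested, the median of set 2 minus set 1 was -0.05 on the log2 scale. Of 29 memberships in 8 lists of cell type and organ markers, 5 were measured under a gene name. The mesophyll marker RCA, the Rubisco activase gene, had signals of 27154 and 28152 in set 2 and 23017 and 25135 in set 1 (AAF-OX and Col-0). The meristem marker CLV3 was at 5.55 and 1.93 in set 2 and 18.3 and 32.5 in set 1. It was thus under 50 on every array, as were 30.1% to 31.4% of probe sets, so its difference between sets carries little weight. Of both measured root markers, PYK10 was higher on both set 2 arrays, at 1527 and 1974 there and 629 and 1075 in set 1, and NAI2 overlapped, at 192 and 312 in set 2 and 210.5 and 340 in set 1. The guard cell marker FAMA was lower on both set 2 arrays, at 193 and 289 there and 306 and 360.0 in set 1. The part of these cell types in the lower signals of the 40 genes was not tested.

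The control probe sets of the arrays differed between the sets. All 24 probe sets for poly-A control transcripts, bacterial RNAs that can be added to a sample before labelling, were brighter on both set 2 arrays than on both set 1 arrays. Their median signals were 102 in AAF-OX and 77.4 in Col-0 in set 2, against 12.02 in AAF-OX and 7.72 in Col-0 in set 1. The hybridisation controls, which are added after labelling, had medians of 1572 and 1326 in set 2 and 1024 and 1043 in set 1. A probe set for 25S ribosomal RNA went the other way, at 153 and 186 in set 2 and 469 and 864 in set 1. The 3' over 5' signal ratio of actin, a measure of RNA integrity and labelling, was 2.97 and 2.79 in set 2 and 2.68 and 2.93 in set 1, so the sets overlapped. The ubiquitin ratio overlapped as well, at 1.28 and 1.07 in set 2 and 1.15 and 1.25 in set 1. The GAPDH ratio was somewhat higher in set 2, at 1.16 and 1.06 there and 0.964 and 1.03 in set 1. The spike signals, the medians of the hybridisation controls, the ribosomal RNA signal and the GAPDH ratio thus move with the sets. Their part in the lower signals of the 40 genes was not tested.

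**Figure D1:**
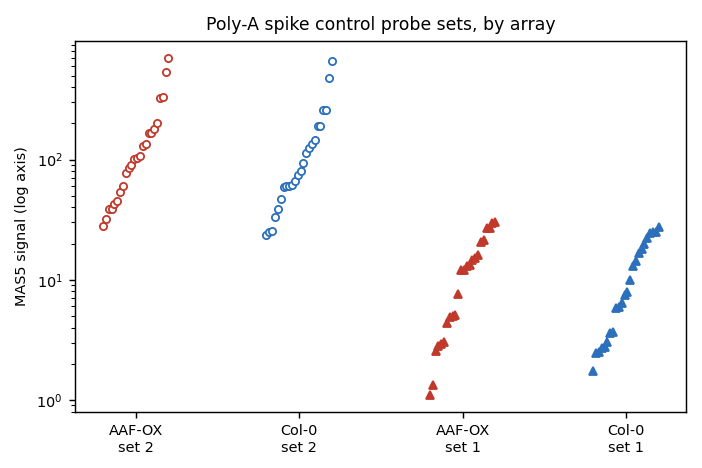
MAS5 signal (log axis) of the 24 poly-A control probe sets on each array, sorted within an array, with open circles for set 2 and triangles for set 1. Each of the 24 probe sets was higher on both set 2 arrays than on both set 1 arrays, and medians were 102 and 77.4 in set 2 against 12.02 and 7.72 in set 1.

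Rosette leaves adjust many transcripts to the time of day, light, temperature, wounding and attack. Cell-surface receptor kinases sense microbes or damage and pass the signal on through calcium, and secreted enzymes, lipid transfer proteins and wall-modifying proteins are frequent outputs. Cytokinin and other hormones act through response regulators and through F-box proteins, which mark target proteins for degradation. Most of the 40 loci carry no symbol in the gene table. Family names given for them below are general background on Arabidopsis genes and do not come from the deposited values.

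The gap ran from 1.51 to 2.96 with a median of 1.76, and 10 of the 40 genes passed 2. As a mean of log2(signal + 50), the genes were 3.10 to 8.96-fold lower in set 2, with a median of 3.997-fold. Every fold value below is on this scale. In set 2 their signals ran from 2.60 to 1310.4 in AAF-OX (median 173) and from 4.79 to 1459.8 in Col-0 (median 165). In set 1 they ran from 179.8 to 4422 in AAF-OX (median 846) and from 192 to 5209.6 in Col-0 (median 747). Both set 2 arrays were under 100 for 11 genes and at least 1 was under 50 for 9, which is in the dim range of these arrays, since 30.1% to 31.4% of probe sets on each array lay under 50. At such signals the added 50 sets much of the ratio.

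**Figure D2:**
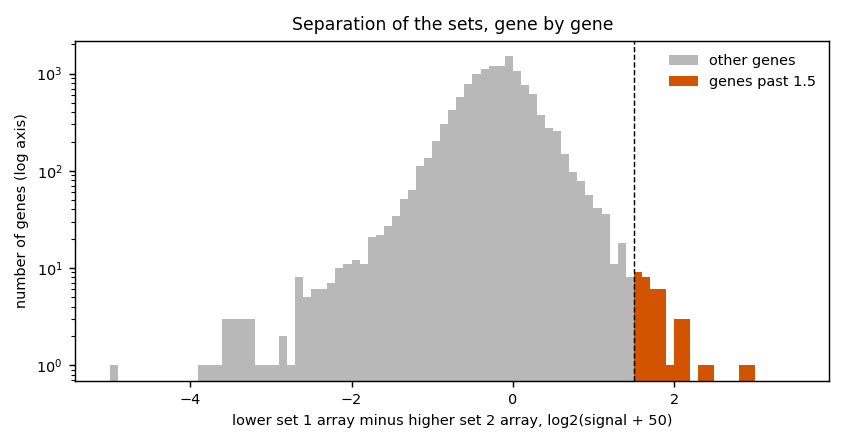
Number of genes (log axis) by the lower set 1 array minus the higher set 2 array on log2(signal + 50), for the 12734 genes that could be chosen. The dashed line marks 1.5, and the 40 genes beyond it run up to 2.96.

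The 3 genes just inside the limit were AT1G52770, GRX480 and AT1G31550, with gaps of 1.55, 1.52 and 1.51. The 3 just outside were UGT87A2, SAL2 and EXO, with 1.499, 1.49 and 1.49, so the values run on across the limit without a break. Leaving out an array makes the rule looser, so the count can only grow. With Col-0 replicate 1 left out 64 genes passed, and with AAF-OX replicate 2 left out 75 passed.

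Secreted and cell wall proteins made up 6 of the 40 genes. AT5G55450, of the lipid transfer protein family of small secreted lipid-binding proteins, had the widest gap of all (2.96). Its signals were 318 in AAF-OX and 391 in Col-0 in set 2, and 3389.6 in AAF-OX and 3741 in Col-0 in set 1. With 50 added to each signal it was 8.96-fold lower in set 2. The expansin gene EXPA16, whose family loosens cell walls during growth, had 91.9 in AAF-OX and 125 in Col-0 in set 2, against 818 in AAF-OX and 579.9 in Col-0 in set 1. AT4G01700, of the chitinase family of fungal wall-degrading enzymes, had 118 and 87.4 in set 2 and 554 and 569 in set 1 (AAF-OX and Col-0). ATPMEPCRB codes for a pectin methylesterase, which removes methyl groups from wall pectin. It had 112 and 124 in set 2, and 508 and 692 in set 1. AT3G51330 and AT1G49050 belong to the aspartyl protease family of protein-cleaving enzymes. AT3G51330 had 52.9 and 31.0 in set 2 and 331 and 418 in set 1. AT1G49050 had 565 and 559 in set 2 and 1844 and 1869 in set 1. In this group no gene was higher in AAF-OX in both sets, and AT5G55450 and ATPMEPCRB were lower in both.

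The largest group, with 8 genes, was that of kinases, calcium and immune signalling. AT5G59670 and AT1G35710 belong to the leucine-rich repeat receptor kinases, a family of cell-surface sensors. AT5G59670 had 108 in AAF-OX and 114 in Col-0 in set 2, against 1217 in AAF-OX and 1109 in Col-0 in set 1. With 50 added to each signal this was a 7.53-fold difference, and the gap was the second widest (2.82). AT1G35710 was 5.32-fold lower in set 2, at 633 and 465 there and 3267 and 2949 in set 1. AT1G48210, of the protein kinase superfamily, had 168 and 261 in set 2 and 1068 and 1041 in set 1. AT1G13640 belongs to the phosphatidylinositol kinase family, which phosphorylates membrane lipids. It had 198 and 161 in set 2 and 785 and 751 in set 1.

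Calcium-binding families gave 3 of these 8 genes. CML41, a calmodulin-like calcium sensor, had 172 in AAF-OX and 149 in Col-0 in set 2, and 1188 in AAF-OX and 634 in Col-0 in set 1. AT3G47480, of the EF-hand calcium-binding family, had 174 and 87.3 in set 2 and 873 and 714 in set 1. AT4G00700, of a family with C2 domains, which bind calcium and lipids, had 66.9 and 23.2 in set 2 and 410.0 and 328 in set 1. All 3 were higher in AAF-OX than in Col-0 in each set. AT1G57630, of the TIR-domain family found in many immune receptors, had 12.4 and 38.5 in set 2 and 336 and 258 in set 1, so its genotypes stood in opposite order in the sets.

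The regulators numbered 6. RR16 is a type-A response regulator, a class that is induced by cytokinin and dampens its signalling. It had 327 in AAF-OX and 322 in Col-0 in set 2, against 1623 in AAF-OX and 1793 in Col-0 in set 1, and was 4.69-fold lower in set 2. AT2G34140, of the Dof family of zinc finger transcription factors, had 2.88 in AAF-OX and 4.79 in Col-0 in set 2, against 179.8 and 192 in set 1. AT3G07870, of the F-box family, had 249 and 190.4 in set 2 and 1200.4 and 1202 in set 1. AT1G26665 belongs to a family that matches subunit 10 of Mediator, the complex that links transcription factors to RNA polymerase II. Its signals were 423 and 679.9 in set 2 and 2092 and 2128 in set 1. The TRAF-like gene AT5G53360 had 161 and 170.3 in set 2 and 628 and 606 in set 1. AT1G52770, of the NPH3 family known from phototropism, had 26.8 and 62.5 in set 2 and 326 and 279.6 in set 1. In AAF-OX and Col-0 alike the signals of all 6 were lower in set 2 than in set 1, as the choice of genes requires.

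Plastid, redox and metabolic genes numbered 7. LHCB4.3 codes for a minor light-harvesting antenna protein of photosystem II. The genotypes nearly coincided for it, at 865 in AAF-OX and 859.9 in Col-0 in set 2 and at 3818 in AAF-OX and 3823 in Col-0 in set 1, while set 2 was 4.24-fold lower. CCS, the copper chaperone that activates copper/zinc superoxide dismutases, had 1022 and 721 in set 2 and 3351 and 3091 in set 1. GRX480, a glutaredoxin known from salicylic acid signalling, had 78.4 and 45.7 in set 2 and 319 and 348 in set 1. DFR, the dihydroflavonol reductase of anthocyanin synthesis, had 99.98 and 92.2 in set 2 and 404 and 582 in set 1. AT5G05600 belongs to the oxygenases that use 2-oxoglutarate and iron. Its signals were 116 and 89.0 in set 2 and 598 and 496 in set 1, and AAF-OX was the higher genotype in both. AT3G60420, of the phosphoglycerate mutase family, had 466 and 338 in set 2 and 2497 and 2187 in set 1. AT2G23910, of the Rossmann-fold family of nucleotide-binding enzymes, had 2.60 and 56.4 in set 2, against 312 and 308 in set 1.

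AT3G60420 was also the single chosen gene with a second probe set. That probe set was dim on every array, at 8.04 and 1.71 in set 2 and 46.9 and 4.71 in set 1. Its gap was -0.09, so it did not separate the sets. The other 39 genes rest on 1 probe set each.

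The remaining genes with a family name were lipid hydrolases and a mixed group of 4. Among hydrolases, AT2G39420 had 208 and 174 in set 2 and 769 and 743 in set 1, and AT5G25770, also of the alpha/beta hydrolases, 103 and 142 in set 2 and 619 and 528 in set 1. The GDSL lipase family gene AT1G31550 had 320.4 and 279 in set 2 and 1003 and 1084 in set 1. These 3 lay near the limit, with gaps of 1.51 to 1.62. AT2G23680, of the WCOR413 family named for cold acclimation, had the third widest gap of all (2.41), with 82.1 in AAF-OX and 94.7 in Col-0 in set 2 and 749.9 in AAF-OX and 717 in Col-0 in set 1. AT1G43910, of the AAA-type ATPases, had 63.8 and 30.5 in set 2 and 532 and 513 in set 1. The chaperone gene Hsp70-2 was 3.68-fold lower in set 2, with 255 and 261 there and 1107 and 1059.5 in set 1. AT1G61740, of the TauE/SafE family of membrane transporters, had 1310.4 and 1459.8 in set 2 and 4422 and 5209.6 in set 1.

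For 6 genes no family is given here. AT1G64360, AT5G58570, AT3G57460 and AT4G17070 were 3.39 to 3.80-fold lower in set 2. AT3G57460 had 41.8 in AAF-OX and 23.3 in Col-0 in set 2 and 239 in AAF-OX and 247 in Col-0 in set 1. AT4G17070 had 261 and 219 in set 2 and 937 and 928 in set 1 (AAF-OX and Col-0). AT1G30250 and AT1G30260 lie next to each other in the gene order of chromosome 1, the only adjacent pair among the 40. AT1G30250 had 560.2 in AAF-OX and 695 in Col-0 in set 2, against 2803 in AAF-OX and 3105 in Col-0 in set 1. AT1G30260 had 671 and 541 in set 2 and 2504 and 2579 in set 1. The measured genes around them differed less between sets, with a set 2 minus set 1 of -0.49 for AT1G30240, 0.07 for AT1G30290, -0.74 for AT1G30300 and 0.35 for AT1G30200. Chromosome 1 held 15 of the 40 genes (0.511% of its 2934 genes that could be chosen), and chromosomes 2 to 5 held 4 to 8 each (0.207% to 0.277%).

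**Figure D3:**
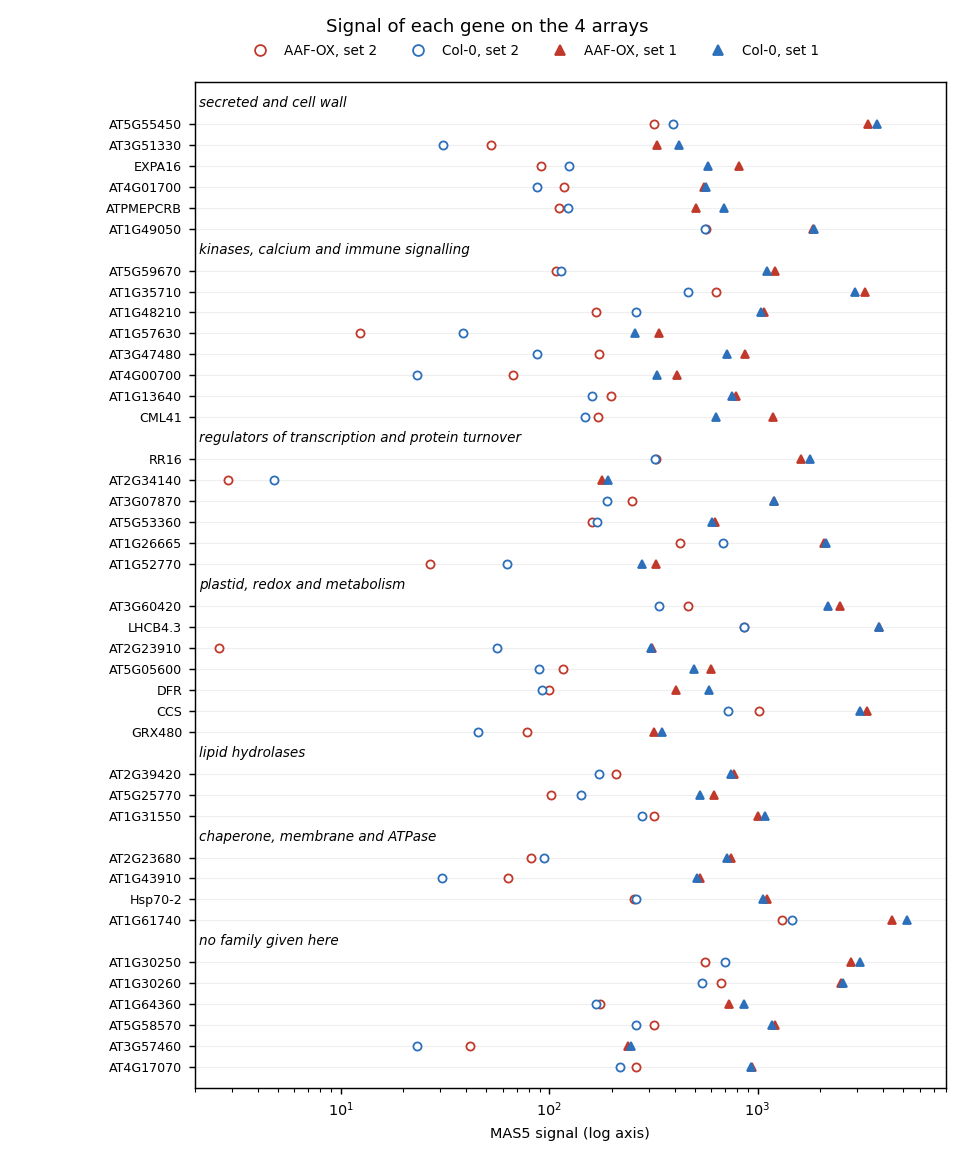
MAS5 signal (log axis) of the 40 genes on the 4 arrays, grouped by function, with AAF-OX in red and Col-0 in blue, open circles for set 2 and triangles for set 1. Set 2 lies left of set 1 for every gene, as the choice of genes requires. The genotypes lie close together within most sets, which the choice of genes favours.

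Relatives of the chosen genes did not all follow them. The chosen genes had to be at least 1.5 lower in set 2, and a relative past the gap would itself have been chosen. The families compared were picked after the 40 genes were known, by shared symbols, and are given as values for family members with a mean signal of at least 100. LHCB4.1 and LHCB4.2, which code for closely related antenna proteins, were 0.27 and 0.82 higher in set 2 (set 2 minus set 1, log2), against -2.08 for LHCB4.3. RR16 had -2.23, whereas ARR15, another type-A response regulator, had 0.86, with 158 and 317 in set 2 and 108 and 97.2 in set 1. Among 5 calmodulin-like genes, CML41 had -2.13 and CML38 had 2.34. CML38 signals were 670 in AAF-OX and 538 in Col-0 in set 2, against 89.7 in AAF-OX and 68.2 in Col-0 in set 1.

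Expansins, too, lay on both sides. Of 11 measured at a mean of at least 100, EXPA16, EXLB1, EXPA20 and EXPA4 had a set 2 minus set 1 of -2.23 to -0.56. The other 7 had 0.25 to 2.27. At the ends stood EXPA16 with -2.23 and EXLA1 with 2.27, where EXLA1 had 1289.5 and 1596 in set 2 and 277 and 239 in set 1. The pectin methylesterase genes ATPMEPCRB, PMEPCRF and PME61 had -1.94, -1.66 and -0.60. The glutaredoxin genes GRX480, GRXC1 and GRXC2 had -1.79, -1.16 and -0.36. The values of EXPA16, LHCB4.3, RR16, CML41, ATPMEPCRB and GRX480 were fixed in sign and least size by the choice of genes. Their distance from the relatives is therefore partly set by that choice.

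**Figure D4:**
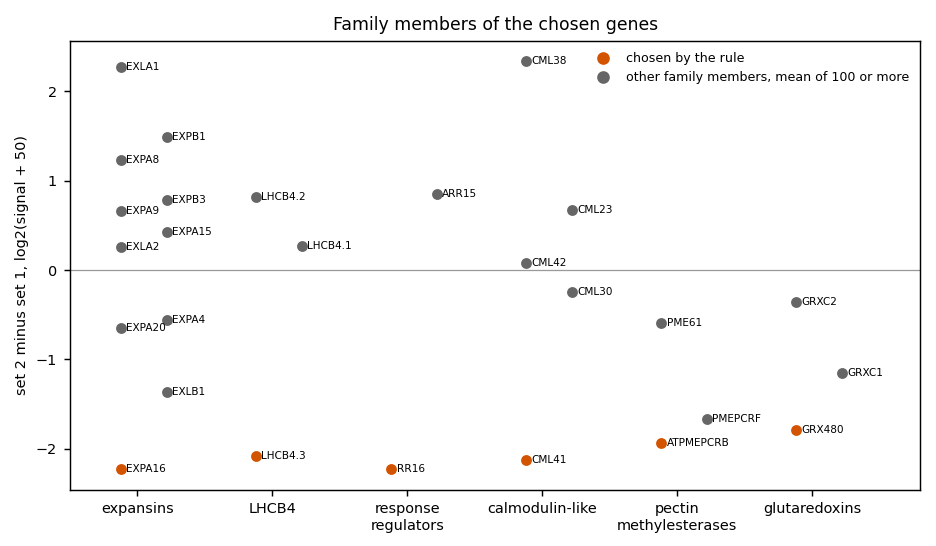
Set 2 minus set 1 in log2(signal + 50), mean over AAF-OX and Col-0, for family members of 6 chosen genes with a mean signal of at least 100. Orange points are the chosen genes, between -2.23 and -1.79, and grey points are relatives, which run from -1.66 to 2.34. The choice of genes requires the orange points to be low.

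Pathway lists add little, because few of their genes were measured under a name. Of 199 memberships in 21 lists, 24 were measured, and 2 lists held a chosen gene. In the flavonoid synthesis list DFR was the single measured gene of 11, and in the salicylic acid defence list GRX480 was the single one of 14. The evening clock list had 3 measured genes of 13, and they did not lie on one side. In set 2 minus set 1 (log2), GI, a clock gene that peaks towards evening, had 3.54. COR27, left out of the 40 genes by name, had -2.62, and COR28 (AT4G33980) had -0.42. The 3 measured cold response genes COR15A, COR15B and COR47, of 11 listed, had 1.81, 2.50 and 0.93.

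Within the sets, AAF-OX and Col-0 were compared over all probe sets with a mean signal of at least 100, with the set as a block. A mean over all 4 arrays can pass through set 1 alone, and 39 of the 40 genes passed, all but AT2G34140. The gap narrows as the genotypes move apart within a set, so the rule works against genes with a large genotype difference. A lack of calls among the chosen genes is therefore partly set by the choice itself. None of the 39 was called (limma, adjusted p under 0.05), against 210 of 13592 probe sets overall (1.55%). AAF-OX was the higher genotype for 182 of these (1.34%) and the lower for 28 (0.206%). Without the block, limma called 0 of the 13592, with 117 at an unadjusted p under 0.05, so the overall count rests on the pairing by set. At an unadjusted p under 0.05 there were 6 of 39, all higher in AAF-OX, where 11.0% of all probe sets passed in either direction and 6.81% as higher. The smallest adjusted p among the 39 was 0.207 (limma).

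The largest differences with the same sign in both sets were in calcium-binding families. CML41 was 0.51 ± 0.17 higher in AAF-OX (log2, SE, limma's adjusted p = 0.244), with 0.16 in set 2 and 0.86 in set 1. AT3G47480 had 0.49 ± 0.16 (limma's adjusted p = 0.207), with 0.70 in set 2 and 0.27 in set 1. AT4G00700 had 0.48 ± 0.20 (limma's adjusted p = 0.366), with 0.68 in set 2, where both arrays were under 100, and 0.28 in set 1. AT1G26665 had -0.32 ± 0.15 (limma's adjusted p = 0.458), nearly all of it from set 2 (-0.63, against -0.02 in set 1). AT3G60420 had 0.30 ± 0.13 (limma's adjusted p = 0.391), with 0.41 in set 2 and 0.19 in set 1. CML41, AT3G47480, AT4G00700 and AT3G60420 had an unadjusted p under 0.05 (limma), whereas AT1G26665 had 0.0507. CCS and AT1G35710 were also under 0.05, at 0.30 ± 0.13 and 0.28 ± 0.12 (limma's adjusted p = 0.396 and 0.435). None of these differences passed over all probe sets.

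Across the 40 genes, 12 were higher in AAF-OX in both sets, 6 were lower in both and 22 had opposite signs. Over the 12734 genes that could be chosen, 21.6% were higher in both and 30.3% lower in both. By group, 5 of the 8 genes for kinases, calcium and immune signalling were higher in both sets and 0 lower, and 3 of the 7 plastid, redox and metabolic genes were higher in both and 0 lower. The regulators and the secreted and cell wall genes had 0 of 6 higher and 2 of 6 lower in both. The median of AAF-OX minus Col-0 over the 39 tested genes was 0.03, against -0.02 over all probe sets tested.

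Genotype differences were more scattered in set 2, where the genes were dimmer. Their median size was 0.27 in set 2 and 0.11 in set 1 for the 40 genes, against 0.17 in both sets over the genes that could be chosen. The choice of genes works against large genotype differences, so the sizes for the 40 and for all genes are not fully alike. Differences over 0.5 were found for 8 genes in set 2, against 9.41% of all genes, and for 1 gene (CML41) in set 1, against 12%. For the 25 genes at 100 or more on both set 2 arrays, the median size was 0.21 in set 2 and 0.11 in set 1, and 2 genes passed 0.5 in set 2. The widest, -1.02 for AT2G23910 in set 2, rests on signals of 2.60 in AAF-OX and 56.4 in Col-0.

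**Figure D5:**
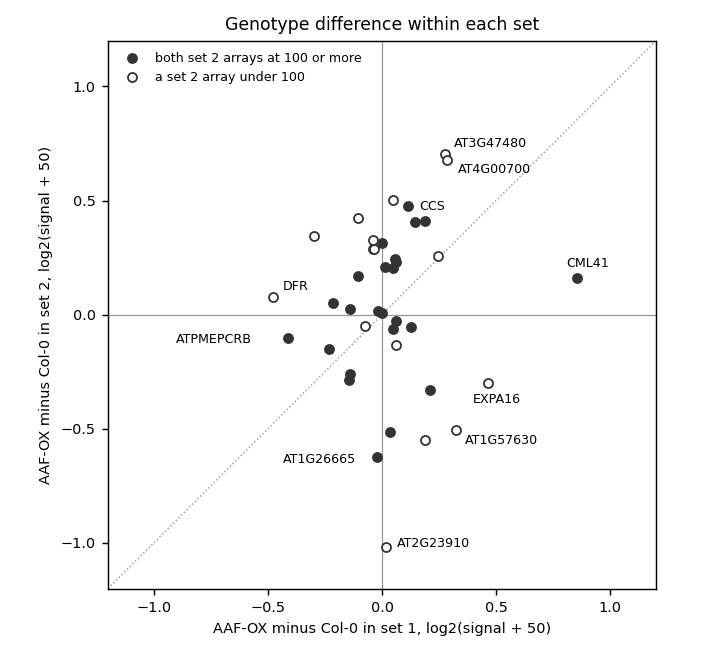
AAF-OX minus Col-0 in set 1 (horizontal) and in set 2 (vertical) on log2(signal + 50) for the 40 genes, with open points where a set 2 array was under 100 and a dotted line of equal values. Points spread from -0.48 to 0.86 in set 1 and from -1.02 to 0.70 in set 2, and 22 of 40 lie in the quadrants of opposite sign.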

How the data were processed

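Rosette leaf RNA of AAF-OX and Col-0 plants was measured on Affymetrix arrays by biotin labelling, per the labels, with 2 arrays per genotype. The authors deposited intensity on a linear scale, 1 value per probe set and array. The submitters' processing notes name MAS5, and its version is not given in the sources used here. The 2%-trimmed mean was 500.04 to 500.05 on every array, and the number of arrays limits the precision.

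Of 22810 probe sets, 64 controls were left out of the tests. In GEO's platform annotation 13513 probe sets had 1 gene, 503 several and 8730 none here, and 13436 matched a TAIR10.1 gene, 13367 of them nuclear. A gene with several probe sets was represented by its brightest on average. No coordinates or sequences are given, and a planned promoter motif search was not made.

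Genotypes were compared with limma 3.58.1 in R 4.3.3 (lmFit, eBayes with an intensity trend, log2(signal + 50), mean signal of at least 100, two-sided, Benjamini-Hochberg, threshold 0.05). The replicate number was a block, since the series names 2 independent sets, and arrays of 1 number deviated together from their genotype means (correlation 0.856). Nothing says that the sets came from separate plants, so the p-values cover only array-to-array spread, which may be technical. Tested on simulated data for the genotype comparison (13592 probe sets), the blocked fit recovered 58% of changes of 0.585, 100% of 1 and 2 and 90% of -1. The simulated noise depended on brightness alone, so equally bright probe sets had the same spread. These shares may therefore be too high, and not only for genes noisier than others of their brightness. The genes and lists were chosen with earlier results of these data known. The rule for named genes took AAF, those among the 15 widest gaps, up to 6 of each group of at least 3, those on a list, the 3 on each side of the limit, and, as fewer than 5 passed between genotypes, the 5 largest differences of 1 sign. Genes named beyond this rule were chosen after their values were seen.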

Additional observations from a re-analysis of the deposited data

Results flagged for a closer look

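Genotype differences of opposite sign in the sets, each of at least 0.3, were found for EXPA16, at -0.30 in set 2 and 0.46 in set 1, and for AT1G57630, at -0.51 in set 2 and 0.32 in set 1 (AAF-OX minus Col-0, log2). Each value comes from 1 array per genotype, and the difference between the sets was not tested.

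Control probe sets that enter no comparison also carried signal. All 24 poly-A control probe sets were higher on both set 2 arrays, and 7 of them were past the mirrored gap of 1.5, while 0 of the 64 controls passed in the direction of the 40 genes. Among probe sets with no gene name here, 64 of 8730 (0.733%) were at least 1.5 lower in set 2. This share counts every such probe set, whereas the 0.314% of named genes counts 1 probe set per gene after the genes left out by the rule, so the shares are not alike.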

How the results depend on the processing

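The number of genes past the gap depended on the scale and the limit. It was 40 as reported, 185 with a pseudocount of 1 and 23 with 100, 154 with a gap of at least 1 and 10 with at least 2. It was 39 after quantile normalization and 36 after median centring. Leaving out single arrays, which can only loosen the rule, gave 50 to 75. Scaling on the hybridisation controls, chosen after seeing the data, gave 120. Of the 40 genes, 22 were kept in every alternative but the gap of 2. Between genotypes, 0 of the 39 genes tested were called (limma) in the reported fit, and 0 in 8 alternatives, which tested 32 to 40, with 0.156 the smallest adjusted p (limma). Among these 8, the fit with no replicate block called 0 of 39, with 0 at an unadjusted p under 0.05. The genes were chosen for a gap of at least 1.5 between sets, and without the block that difference enters the error. A lack of calls there is therefore set largely by the choice of genes. With 1 array left out as well, the genotype difference takes in part of the set difference, so nothing is drawn from those fits. For the chosen genes, the fit with no block thus cannot decide on genotype differences. It ended the call of AT1G66330 (log2 2.85, limma's adjusted p = 1, against 2.53e-06 with the block). Over all probe sets the count of 210 became 0 without the block, 76 with a pseudocount of 1, 18 with no filter on low values, 137 with median centring and 21 with no intensity trend. The median over the genes was 0.03 as reported, 0.0767 without replicate 1 and 0.0363 without replicate 2. With 1 array left out, the block leaves no residual degrees of freedom, so no test was made. The 8 alternatives gave 305 values for 39 genes, of which 302 kept direction and 0 were called, though the fit with no block could hardly call any. Leaving out the block or the intensity trend, or changing the filter, does not alter the log2 estimate, so direction could not change there. Only the pseudocounts, quantile normalization and median centring could change it. The 3 that changed sign were near 0: AT3G51330 to -0.0214 with a pseudocount of 100, and AT1G49050 and AT5G53360 to 0.0119 and 0.0065 with median centring. As reported, AT3G51330 was at 0.0240, AT1G49050 at -0.0024 and AT5G53360 at -0.0078. Median centring raised the values of the genes tested alike, and their median went from 0.0319 to 0.0462. Values from a single set are not among the 305, and between the sets 22 of the 40 genes had opposite signs.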

Other observations

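The widest gaps of all were in probe sets with no gene name here. The widest had 112 in AAF-OX and 139 in Col-0 in set 2, against 3220.3 in AAF-OX and 3054 in Col-0 in set 1, a gap of 4.04. The next had 257 and 123 in set 2 and 6216 and 4407 in set 1, a gap of 3.86. Both exceed the 2.96 of the widest named gene. CHI and COR27, left out by name, had gaps of 2.44 and 2.07.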
